A study of Homo sapiens with 12 samples.

Results

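The untreated arm of this experiment comprised 3 of 12 RNA sequencing libraries of HL-60, an established human acute myeloid leukaemia (AML) cell line, and it is described here on its own, across 58233 listed genes. The libraries were selected by their labels as untreated replicates 1, 2 and 3. The labels describe the cells as myeloid, of blood origin and of genotype wt. They were grown in RPMI with 10% FCS, belonged to an experiment with a duration of 3 h, and received neither ATRA nor palbociclib, the 2 agents given to the other 9 libraries. Whether a vehicle was added is not given in the labels. HL-60 is a single line, so the values below describe these cultures and no other AML. Each value is an RPKM (reads normalised to gene length and library size) that was deposited as a whole number, so levels are compared between genes per length. The gene lengths behind these values are not given in the sources used here, and a gene listed at 0 is below the rounding step. Errors are SDs over the 3 libraries, and no test was run because a single group was described.

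HL-60 is a promyelocytic line, arrested at the stage of neutrophil development at which primary (azurophil) granules are filled. In normal marrow the granule proteins are made in sequence: myeloperoxidase and the serine proteases come first, the secondary granule proteins appear as division ceases, and the genes of the mature neutrophil follow. The line is also known for amplification of MYC, for loss of CDKN2A, and for an activating NRAS mutation.

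The 3 libraries were close to each other in total. Their RPKM values summed to between 363245 and 363796, and between 13135 and 13283 genes reached at least 1 RPKM in a library. These sums say nothing of how many reads a library held. On the mean of the 3 libraries, 12480 genes reached 1 RPKM, including 9555 of 19683 protein-coding genes (48.5%). The median of those 9555 genes was 7.33 RPKM. A further 1539 genes had a mean above 0 and under 1, and 44214 genes were listed at 0 in every library.

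A small number of genes held much of the signal. The 33 genes at 1000 RPKM or more made up 29.9% of the summed RPKM, the 427 genes from 100 to under 1000 made up 28.6%, and the 4292 genes from 10 to under 100 made up 33.4%. The remaining 7728 genes at 1 RPKM or more contributed 7.95%. The 10 most abundant genes alone held 18.5% ± 0.876 (SD, n = 3), and the 100 most abundant held 40.5% ± 0.661.

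All of these 10 genes were encoded in the mitochondrial genome, whose transcripts encode core subunits of the respiratory chain and the RNAs that translate them. MT-CO3, a subunit of cytochrome c oxidase, was the most abundant gene, at 12804, 12767 and 12408 RPKM in replicates 1, 2 and 3. MT-CO2, of the same complex, was at 11154, 11696 and 11277 RPKM. The complex I gene MT-ND4 was at 8962, 10268 and 7748 RPKM, and its range overlapped that of MT-ATP6, an ATP synthase subunit, at 8678, 8724 and 7459 RPKM. The 37 mitochondrially encoded genes together made up 23.0% ± 1.03 of the summed RPKM, and the 13 that encode proteins made up 20.3% ± 1.18. When each RPKM was multiplied by the exonic length of its gene, which approximates a share of reads, the mitochondrial share was 6.30%. Nuclear pseudogenes copied from mitochondrial genes held another 3.66% ± 0.208, led by MTCO3P12 at 3041, 3089 and 2965 RPKM. Such copies are nearly identical to their source, and the division of reads between them is uncertain.

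The cytosolic ribosomal protein genes formed the next large class. All 79 of them reached 1 RPKM, and together they held 8.58% ± 0.309 of the summed RPKM. Among the most abundant were RPL41, at 1489, 1453 and 1623 RPKM, and RPS2, at 1311, 1378 and 1376 RPKM, whose ranges did not overlap. The lowest means in the class were those of RPL17, at 10.7 RPKM, and RPL36A, at 4.33 RPKM. Exons of another gene on the same strand cover 32.9% of the exonic bases of RPL17. Processed pseudogenes, many of which derive from abundant housekeeping mRNAs, made up 13.3% ± 0.395 of the summed RPKM, with the same reservation on the division of reads.

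Among the nuclear coding genes outside the ribosomal proteins, FTL was the most abundant. FTL encodes the light chain of ferritin, which stores iron, and it was at 1777, 1953 and 1885 RPKM. The elongation factor gene EEF1A1 followed at 1715, 1724 and 1903 RPKM. MPO, which encodes myeloperoxidase, came next at 1254, 1372 and 1411 RPKM (mean 1346 ± 81.7). Its level was above that of 99.9% of coding genes. The values of this myeloid granule enzyme overlapped those of the actin genes ACTB (1137, 1467 and 1320 RPKM) and ACTG1 (1016, 1273 and 1186 RPKM). LYZ, which encodes lysozyme, took the sixth place at 902, 982 and 1149 RPKM. Of the 20 neighbouring pairs in this order, 2 did not overlap over the 3 libraries, so most of the order between neighbours was within the replicate spread.

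**Figure D1:**
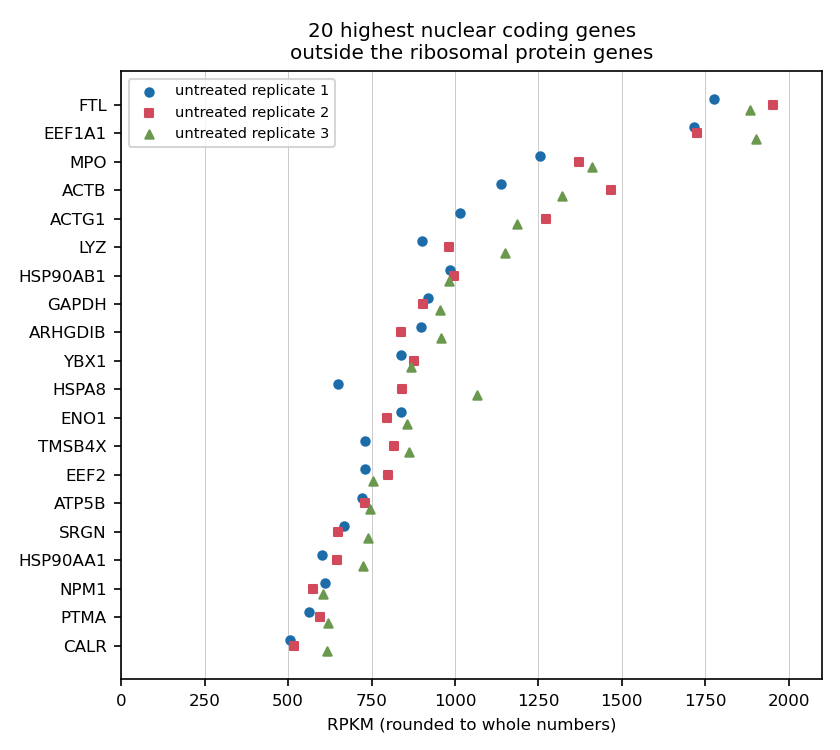
RPKM of the 20 nuclear protein-coding genes with the highest mean outside the ribosomal protein genes, with 1 point for each untreated library (x axis, linear from 0). FTL and EEF1A1 lie highest, MPO follows with values from 1254 to 1411, and the points of neighbouring genes mostly overlap.

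The remaining genes in the plot of the highest coding genes included chaperones, glycolytic enzymes and the cytoskeletal gene TMSB4X. SRGN, ARHGDIB, YBX1, EEF2, ATP5B, NPM1 and PTMA lay among them. HSP90AB1, a cytosolic chaperone, was the most even of the 20 across libraries, at 985, 996 and 981 RPKM. HSPA8, another cytosolic chaperone, was the least even, at 650, 841 and 1066 RPKM. ARHGDIB, a haematopoietic inhibitor of small GTPase cycling, was at 897, 838 and 959 RPKM. The 17 glycolysis genes held 1.09% ± 0.0238 of the summed RPKM, and 16 of them reached 1 RPKM. GAPDH was at 920, 903 and 956 RPKM and ENO1 at 838, 795 and 857 RPKM, whereas the neuronal enolase gene ENO2 was listed at 0 in every library. Among lactate dehydrogenase subunits, LDHB (513, 513 and 536 RPKM) was above LDHA (256, 244 and 250 RPKM), and their ranges did not overlap. Exons of another gene on the same strand cover 33.4% of the exonic bases of LDHB. The 21 chaperone genes (1.72% ± 0.119) and 16 cytoskeletal genes (1.62% ± 0.128) all reached 1 RPKM. VIM, the intermediate filament gene vimentin, was low for this group at 16, 19 and 16 RPKM.

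The primary granule genes were the lineage list with the highest summed level. This list of 17 genes covers enzymes, antimicrobial proteins and the proteins that package or restrain them. Of the 17, 12 reached 1 RPKM, 4 were listed at 0 in every library and 1 lay between, against 48.5% of all coding genes at 1 RPKM or more. Their sum was 3499 ± 285 RPKM, or 0.962% ± 0.0790 of all RPKM. In these bulk libraries, fewer cells of a type and less RNA per cell cannot be told apart.

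**Figure D2:**
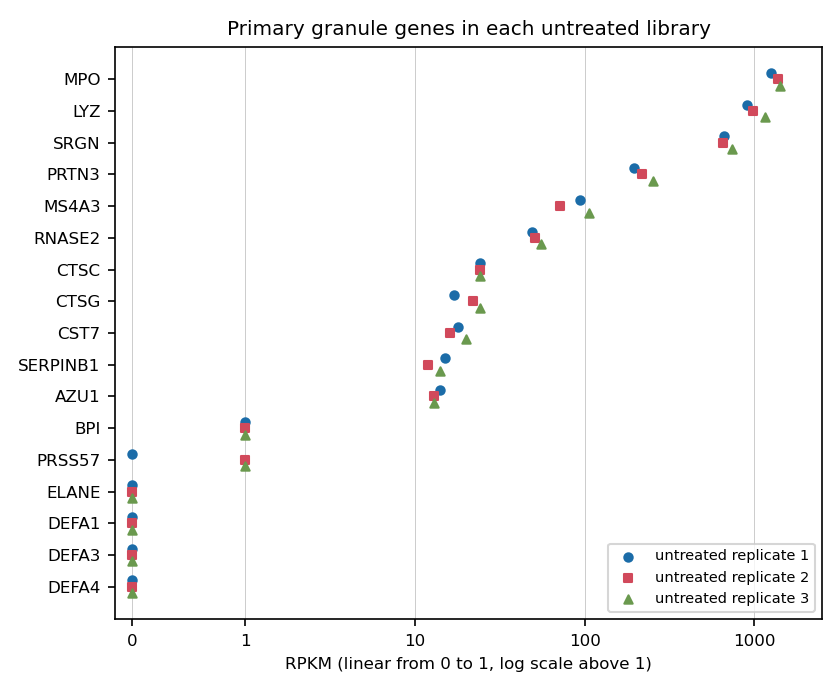
RPKM of the 17 primary granule genes, with 1 point for each untreated library (x axis, linear from 0 to 1 and logarithmic above 1). The listed genes run from MPO at 1254 to 1411 down to AZU1 at 13 to 14 and BPI at 1, and ELANE, DEFA1, DEFA3 and DEFA4 are listed at 0 in each library.

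The plot of the granule genes shows a wide range of levels within this single programme. SRGN, which encodes the proteoglycan serglycin that holds basic proteins in granules, was at 666, 651 and 740 RPKM. PRTN3, which encodes the serine protease proteinase 3, was at 196, 219 and 252 RPKM (mean 222 ± 28.1), above 99.3% of coding genes. MS4A3, a membrane protein of granulocyte and monocyte precursors, was at 94, 72 and 106 RPKM. RNASE2, a secreted ribonuclease also made by eosinophils, was at 49, 51 and 55 RPKM. The other serine protease genes were lower than PRTN3 in every library. CTSG, which encodes cathepsin G, was at 17, 22 and 24 RPKM. AZU1, which encodes azurocidin, a protease homologue without catalytic activity, was at 14, 13 and 13 RPKM. The ratio of PRTN3 to AZU1 was 14, 16.8 and 19.4 in replicates 1, 2 and 3. CTSC, the peptidase that activates the granule serine proteases, was at 24 RPKM in each library. SERPINB1, an inhibitor of these proteases, was at 15, 12 and 14 RPKM, and CST7, which encodes cystatin F, an inhibitor of cysteine proteases, was at 18, 16 and 20 RPKM. BPI, a bactericidal protein that binds endotoxin, was at 1 RPKM in each library, and PRSS57 was at 0, 1 and 1 RPKM.

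ELANE, which encodes neutrophil elastase, was listed at 0, 0 and 0 RPKM. AZU1, PRTN3 and ELANE lie side by side on chromosome 19 (GRCh38, GENCODE v44: AZU1 at 825097 to 832018, PRTN3 at 840999 to 848175, ELANE at 851014 to 856247, all on the plus strand). The gap between PRTN3 and ELANE is 2838 bases. No exonic base of ELANE is shared with another gene in that annotation. Its other neighbour CFD, which encodes complement factor D, was at 6, 8 and 9 RPKM. Of the 66 coding genes within 1 Mb of ELANE, 38 (57.6%) reached 1 RPKM, against 48.5% of all coding genes. A gene listed at 0 between neighbours at 222 and 7.67 RPKM was measured in all 3 libraries, and the part of read assignment in it was not tested. The defensin genes DEFA1, DEFA3 and DEFA4 were also listed at 0 in every library. DEFA1 and DEFA3 are near-identical copies whose reads a counter can leave unassigned, so their zeros are uncertain.

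The regions upstream of AZU1, PRTN3 and CTSG are printed as those of the granule serine protease family, of which PRTN3 was listed far above the others. ELANE and MPO had no entry in the RefSeq promoter table used here. Each run is the 250 bases before the RefSeq start (GRCh38.p14), 5′ to 3′ on the gene's strand. The RefSeq start of AZU1 lies inside the longer GENCODE v44 gene. Capitals mark exact matches, on either strand, to the ETS core AGGAAG and to the CEBP letters TTNNGNAA, which are the kind of site bound by SPI1 and by the CEBP factors.
AZU1, chr19:827587-827836, plus strand: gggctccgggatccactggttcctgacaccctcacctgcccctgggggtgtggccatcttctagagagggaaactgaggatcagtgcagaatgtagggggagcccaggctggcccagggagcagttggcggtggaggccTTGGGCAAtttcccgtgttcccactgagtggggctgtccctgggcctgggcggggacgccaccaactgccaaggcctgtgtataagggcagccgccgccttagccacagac
PRTN3, chr19:840749-840998, plus strand: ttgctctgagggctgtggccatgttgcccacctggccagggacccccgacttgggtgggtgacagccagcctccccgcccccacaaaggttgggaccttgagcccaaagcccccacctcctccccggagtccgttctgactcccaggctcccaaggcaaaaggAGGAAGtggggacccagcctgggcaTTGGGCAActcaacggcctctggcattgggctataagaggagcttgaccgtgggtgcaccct
CTSG, chr14:24576251-24576500, minus strand: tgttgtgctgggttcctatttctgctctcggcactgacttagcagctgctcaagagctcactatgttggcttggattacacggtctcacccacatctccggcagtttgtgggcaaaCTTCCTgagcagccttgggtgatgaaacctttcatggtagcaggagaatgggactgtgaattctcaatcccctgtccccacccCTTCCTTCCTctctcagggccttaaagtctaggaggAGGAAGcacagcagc

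The 3 upstream regions carried different sets of matches. AZU1 had 1 CEBP match, beginning 111 bases before the start, and 0 ETS matches. PRTN3 had 1 ETS match, 87 bases before the start, and 1 CEBP match, 62 bases before it. CTSG had 4 ETS matches, at 134, 51, 47 and 15 bases before the start, of which the pair at 51 and 47 overlap, and 0 CEBP matches. The shorter MYB letters AACNG, not capitalised above, occurred 3 times in AZU1, 2 times in PRTN3 and 1 time in CTSG. The exact letters TATAAA occurred in none of these 3 windows, while the printed runs of AZU1 and PRTN3 hold the near match TATAAG. Across 34943 RefSeq promoter windows of the same length, 28.7% held the ETS letters, 33.2% the CEBP letters, 70.6% the MYB letters and 10.8% TATAAA, so a match of these kinds is common and describes the letters only.

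Genes of myeloid transcription factors were listed throughout. All 15 genes of the myeloid transcription factor list reached 1 RPKM, with a median of 26.3 RPKM. SPI1, which encodes PU.1, the factor required for granulocytes and monocytes, was the highest at 80, 86 and 85 RPKM, above 97.9% of coding genes. IRF8, a factor of the monocyte and dendritic branch, was at 57, 58 and 67 RPKM. MYB, a factor of immature and dividing progenitors, was at 58, 54 and 64 RPKM. GFI1, a repressor needed for neutrophil development, was at 53, 56 and 57 RPKM. The ranges of IRF8, MYB and GFI1 overlapped, so their order was within the replicate spread.

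Among the CEBP factors, the early and late granulocytic members were close. CEBPA, which drives entry into the granulocyte lineage, was at 33, 35 and 36 RPKM. CEBPE, which is needed for secondary granules, was at 34, 32 and 37 RPKM, within the same range. CEBPD (6, 7 and 9 RPKM) and CEBPB (6, 7 and 8 RPKM), which serve later and emergency granulopoiesis, were lower than both in every library. RUNX1, a haematopoietic factor often mutated in AML, was at 11, 11 and 10 RPKM. KLF4, a factor of monocytes, was the lowest of the list at 2 RPKM in each library.

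Genes of later neutrophil stages were listed in part. Of 16 secondary and tertiary granule genes, 5 reached 1 RPKM and 11 were listed at 0 in every library. The 11 included the defining members LTF (lactoferrin), LCN2 (lipocalin 2), CAMP (the cathelicidin precursor), MMP8 and MMP9 (the granule collagenase and gelatinase) and CEACAM8. The highest of the 5 was ORM1, an acute phase glycoprotein gene, at 48, 45 and 42 RPKM. CHI3L1, a chitinase-like protein, was at 12, 16 and 14 RPKM. TCN1, which encodes the cobalamin-binding haptocorrin, was at 4, 4 and 9 RPKM, its value in replicate 3 being above the others. The summed level of the 16 genes was 67 to 70 RPKM, against 3250 to 3810 RPKM for the 17 primary granule genes.

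The list of mature neutrophil genes was divided between its functions. Of 16 genes, 9 reached 1 RPKM, 6 were listed at 0 in every library, and S100A12 was at 0, 0 and 1 RPKM. Subunits of the NADPH oxidase, the enzyme of the respiratory burst, were present: NCF4 at 50, 50 and 54 RPKM, CYBB at 25, 28 and 27 RPKM, CYBA at 16, 18 and 19 RPKM, and NCF1 at 4, 4 and 3 RPKM. These 4 genes were listed over a wide range. The calprotectin subunit genes S100A9 (122, 99 and 139 RPKM) and S100A8 (20, 15 and 23 RPKM) were listed with a ratio of 6.25 ± 0.306. CSF3R, the receptor for G-CSF, was at 4 RPKM in each library. Receptors of the mature cell were at 0 in every library, among them FPR1 and FPR2 for formyl peptides, FCGR3B, CXCR1 and ITGAM, which encodes the differentiation marker CD11b. CXCR2 was at 2, 3 and 3 RPKM.

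Monocyte and macrophage genes were mostly listed at 0. Of 17, 2 reached 1 RPKM, FCGR1A (the high-affinity IgG receptor) at 12, 12 and 13 RPKM and KLF4 at 2 RPKM in each library. CX3CR1 was at 0, 1 and 1 RPKM. CD14, CSF1R, CD163 and VCAN were among the 14 genes at 0 in every library. CD68 was also at 0, but 81.6% of its exonic bases lie in exons of another gene on the same strand.

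**Figure D3:**
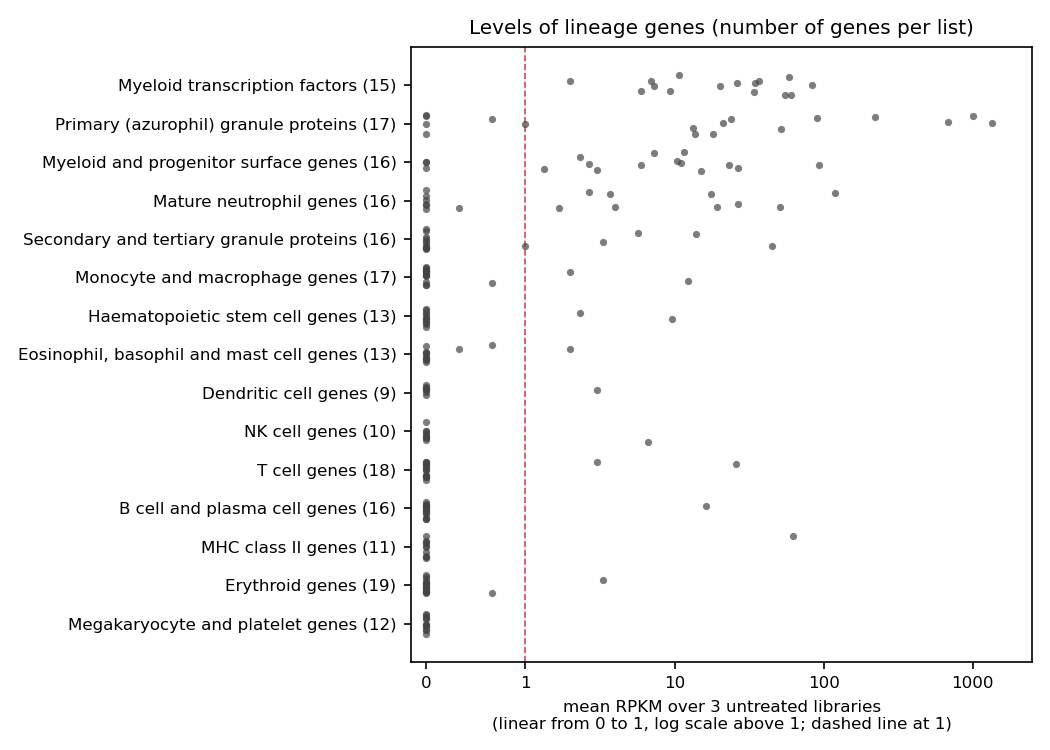
Mean RPKM over the 3 untreated libraries for each gene of 15 lineage lists (x axis, linear from 0 to 1 and logarithmic above 1, dashed line at 1 RPKM), with 1 point per gene, shifted vertically within its list so that points can be seen. The myeloid transcription factors all lie above the line, the primary granule genes reach the highest values, and the lymphoid, erythroid and megakaryocyte lists lie almost wholly at 0.

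Surface genes of myeloid and progenitor cells were mostly listed, without the stem cell markers among them. Of 16 genes, 13 reached 1 RPKM and 3 were listed at 0 in every library, namely CD34, KIT and PROM1. TFRC, the transferrin receptor of iron-demanding, dividing cells, was the highest at 98, 87 and 96 RPKM. ANPEP, which encodes CD13, was at 23, 22 and 25 RPKM, and CD33, the target of antibody therapy in AML, was at 7, 7 and 8 RPKM. FLT3, the receptor for FLT3 ligand, was at 10, 12 and 13 RPKM, CLEC12A at 11, 10 and 12 RPKM and FUT4, whose product makes the CD15 epitope, at 11, 10 and 10 RPKM. The ranges of these 3 genes overlapped. IL3RA was at 2, 3 and 3 RPKM, and CD38 at 3, 2 and 2 RPKM.

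The stem cell list was mostly at 0. Of 13 genes, 2 reached 1 RPKM, the transcription factor gene GATA2 at 7, 10 and 12 RPKM and MSI2 at 3, 2 and 2 RPKM. The 11 at 0 in every library included CD34, MEIS1, MECOM, HLF, ERG, HOXA9 and HOXA10. Homeobox genes of the A cluster, which are high in many other AMLs, were listed at 1 RPKM or more for 3 of 11 members. They included HOXA5 and HOXA11, at 1 RPKM in each library. Of the B cluster, 10 of 10 genes were at 0 in every library.

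Lists of other lineages were described in the same way. All lists were chosen with earlier results of these data known, so they are no independent check of the labelled cell type. Of 12 megakaryocyte genes 0 reached 1 RPKM, and of 19 erythroid genes 1 did so, EPOR at 3, 4 and 3 RPKM, with KLF1 at 1, 1 and 0 RPKM. The globin genes were at 0 in every library. Among 18 T cell genes, 2 reached 1 RPKM. CD4, which monocytic and granulocytic precursors also express, was at 24, 28 and 26 RPKM, and TRAC, the T cell receptor alpha constant segment, was at 2, 2 and 5 RPKM. CD3D, CD3E, CD8A and LCK were at 0 in every library.

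The remaining lymphoid and myeloid lists had 1 member each at 1 RPKM or more. These were IGKC, an immunoglobulin constant segment, at 14, 14 and 21 RPKM among 16 B cell genes, NKG7 at 5, 8 and 7 RPKM among 10 NK cell genes, and BATF3 at 3 RPKM in each library among 9 dendritic cell genes. Of 13 eosinophil, basophil and mast cell genes, RNASE3, which encodes the eosinophil cationic protein, was at 2 RPKM in each library. The B cell genes MS4A1 and CD79A were at 0 in every library. Among 14 epithelial, stromal, endothelial, hepatic and neural genes, PECAM1, which leukocytes also express, was at 2 RPKM in each library and the other 13 were at 0. By whole lists, 100% of myeloid transcription factors, 81.2% of myeloid and progenitor surface genes and 70.6% of primary granule genes reached 1 RPKM. The share was 56.2% of mature neutrophil, 31.2% of secondary and tertiary granule and 11.8% of monocyte genes. It was 11.1% of T cell, 10% of NK cell, 6.25% of B cell, 5.26% of erythroid and 0% of megakaryocyte genes. Among all coding genes it was 48.5%. These shares describe the chosen lists and do not test the labelled cell type.

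The antigen presentation genes split by class. All 10 class I genes reached 1 RPKM. HLA-B was at 455, 424 and 452 RPKM, B2M, the shared light chain, at 360, 348 and 363 RPKM, and HLA-C at 255, 235 and 255 RPKM. HLA genes are similar in sequence and variable, so the division of reads among them is uncertain. Of 11 class II genes, 10 were at 0 in every library, including HLA-DRA and the transactivator gene CIITA. The exception was CD74, the invariant chain, at 52, 77 and 59 RPKM, with replicate 2 above the others. Of 13 leukaemia-associated antigen genes, 6 reached 1 RPKM, among them WT1 at 13, 13 and 15 RPKM, the telomerase gene TERT at 10, 9 and 10 RPKM and PRAME at 4 RPKM in each library. The 7 MAGE, CTAG, GAGE and XAGE genes were at 0 in every library.

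MYC was the highest of the genes known to be altered in HL-60. It lies at chr8:127735434-127742951 on the plus strand and was at 168, 184 and 205 RPKM (mean 186 ± 18.6), above 99.1% of coding genes. Its binding partner MAX was at 10, 12 and 11 RPKM, so the ratio of MYC to MAX was 16.9 ± 1.65. The related genes MYCL (2 RPKM in each library) and MYCN (0 in each library) were low. Of the antagonists that compete for MAX, MGA was at 8, 6 and 7 RPKM, MXI1 at 6, 6 and 5 RPKM, MXD1 at 3 RPKM and MNT at 1 RPKM in each library. PVT1, the long non-coding RNA next to MYC that is commonly amplified with it, was at 1 RPKM in each library, which is the rounding step. RNA levels do not measure gene copy number, and no library of another cell type was available here to set these values against. NRAS was at 31, 28 and 29 RPKM, above 92.5% of coding genes, and its mutation cannot be read from these values.

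The locus of the cell cycle inhibitors CDKN2A and CDKN2B on chromosome 9 was low. CDKN2A, which encodes p16 and p14ARF, was at 1 RPKM in each library, and CDKN2B was at 0. The neighbouring metabolic gene MTAP, often deleted with them in tumours, was at 2, 3 and 2 RPKM. Within 1 Mb on either side, 4 of 23 coding genes (17.4%) reached 1 RPKM, against 48.5% of all coding genes. Beside CDKN2A and MTAP, these were FOCAD at 5, 5 and 6 RPKM and KLHL9 at 3 RPKM in each library. Most of the 19 genes at 0 in this window are type I interferon genes, which are silent in resting cells of many kinds.

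The direct targets of the drugs used elsewhere in the experiment were listed in the untreated cells as follows. Palbociclib inhibits CDK4 and CDK6, the kinases that phosphorylate the retinoblastoma protein with D-type cyclins. CDK4 was at 55, 51 and 57 RPKM and CDK6 at 10, 8 and 6 RPKM, a ratio of 5.50, 6.38 and 9.50 in replicates 1, 2 and 3. CDK4 was thus above CDK6 in every library. Of the D-type cyclins, CCND3 was at 18, 27 and 25 RPKM, CCND2 at 7, 6 and 5 RPKM and CCND1 at 2 RPKM in each library, without overlap of their ranges. RB1, the substrate, was at 21, 25 and 21 RPKM, and its relatives RBL1 (12, 11 and 11 RPKM) and RBL2 (11, 12 and 14 RPKM) overlapped each other. Inhibitors of these kinases were low, with CDKN2C at 4, 5 and 5 RPKM and CDKN2D at 1 RPKM in each library, while CDKN1B, which encodes p27, was at 12, 12 and 10 RPKM.

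ATRA binds the retinoic acid receptors, which pair with retinoid X receptors on DNA. RARA was at 10, 11 and 10 RPKM, and RARB and RARG were at 0 in every library. RXRA (12, 14 and 14 RPKM) and RXRB (12, 13 and 12 RPKM) were listed within the same range, and RXRG was at 0. The retinoic acid hydroxylase genes CYP26A1 and CYP26B1, themselves inducible by retinoic acid, were at 0 in every library, as was CRABP1, while CRABP2, which carries retinoic acid to its receptor, was at 1 RPKM in each library. One receptor of each class or more was therefore listed, with RARA as the retinoic acid receptor above the rounding step.

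Genes of cell division were uniformly listed. All 22 proliferation genes reached 1 RPKM, with a median of 70.7 RPKM, against 7.33 RPKM for the coding genes at 1 RPKM or more. PCNA, the sliding clamp of DNA replication, was at 261, 276 and 256 RPKM, TOP2A at 128, 142 and 136 RPKM and MCM7, of the replicative helicase, at 121, 117 and 125 RPKM. MKI67 was at 19 RPKM in each library and CCNE2 the lowest at 3 RPKM. The BCL2 family, which sets the threshold for apoptosis, had 14 of 15 genes at 1 RPKM or more. MCL1, the survival protein on which many myeloid cells depend, led at 120, 119 and 112 RPKM, whereas BCL2 was at 13 and BCL2L1 at 4 RPKM in each library. Of the effectors, BAK1 was at 30, 31 and 28 RPKM and BAX at 19 RPKM.

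Long non-coding RNAs held 0.491% ± 0.0403 of the summed RPKM, and 388 of 14197 reached 1 RPKM. The highest was LRRC75A-AS1, a snoRNA host gene, at 136, 120 and 138 RPKM, followed by ZFAS1 at 96, 86 and 101 RPKM. Both belong to a class of growth-related transcripts that, like SNHG1 (74, 56 and 77 RPKM) and GAS5 (72, 59 and 69 RPKM), carry snoRNAs in their introns. MALAT1, a nuclear RNA that is abundant in most cells, was at 13, 7 and 6 RPKM. Of its exonic bases 83.7% overlap exons on the opposite strand, and whether this affected its level was not tested. MIR223HG, the host of the myeloid miR-223, was at 14, 13 and 17 RPKM, and the HOXA-linked HOTAIRM1 was at 0 in every library. Replication-dependent histone mRNAs lack a poly(A) tail, and in these poly(A) libraries 12 of 67 histone genes reached 1 RPKM. All 67 together held 0.00944% ± 0.00234 of the summed RPKM.

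A value of 0 in these libraries cannot be read as absence of a transcript. EEF1G, an elongation factor subunit that every cell uses, was at 0 in each library, and 99.7% of its exonic bases lie in exons of another gene on the same strand. Among 16186 coding genes without such sharing, 49.4% were at 0 in all libraries. The share was 34.9% of 1621 genes with up to 10% of bases shared and 46.0% of 1091 genes with more than 10% and up to 50%, both below that of genes without sharing. It was 76.3% of 396 genes with more than 50% and up to 90% of bases shared, and 97.4% of 389 genes with more than 90%. Of the genes named above at 0, ELANE shares no exonic base on the same strand, and CD68 does.

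The spread between the untreated libraries was small for most genes. Across the 2678 genes with a mean of at least 20 RPKM, the median coefficient of variation (CV) was 4.72%, and 31 genes exceeded 20%. Between pairs of libraries, Pearson's r of log2 RPKM across these genes was 0.9935 to 0.9945, and between 8 and 15 genes differed by more than 1.5-fold. These are correlations across genes of the same cell line, and genes are not independent replicates. No pair of libraries was a duplicate, with 10.8% to 13.2% of values identical in a pair.

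The 10 genes with the largest CV fell into few kinds. The tRNA genes MT-TH (55, 28 and 24 RPKM), MT-TS2, MT-TI and MT-TQ were among them, and these are very short genes of 59 to 72 bases. INSIG1, which retains the sterol sensor in the endoplasmic reticulum, was at 23, 43 and 23 RPKM, and HMGCS1, an enzyme of cholesterol synthesis, was at 53, 84 and 51 RPKM. The inducible HSP70 genes HSPA1A (14, 33 and 30 RPKM) and HSPA1B (15, 32 and 30 RPKM), which are near-identical copies, completed the coding genes, together with the pseudogenes HSPA8P11 and HSPA8P1. Replicate 2 was the highest for the sterol genes, and replicate 1 the lowest for the HSP70 genes.

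**Figure D4:**
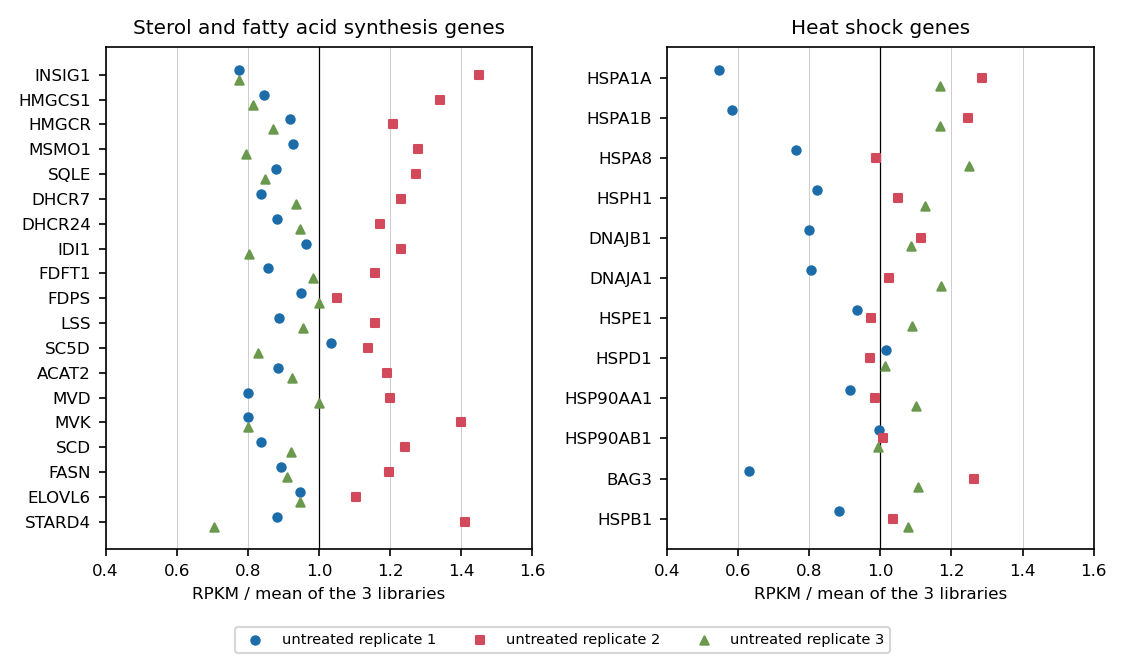
RPKM of each gene divided by its mean over the 3 untreated libraries (x axis, linear), with 1 point per library, for 19 of 20 sterol and fatty acid synthesis genes (left) and 12 heat shock genes (right). Replicate 2 lies highest for each gene on the left, and replicate 1 lies lowest for 10 of the 12 on the right.

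Both kinds were followed in lists written after these values had been seen, so their counts are descriptions. Of 21 sterol and fatty acid synthesis genes, 20 had a mean of at least 5 RPKM, and 20 of these 20 were highest in replicate 2. The median ratio to the gene's mean was 0.882, 1.22 and 0.893 in replicates 1, 2 and 3. SCD, the stearoyl-CoA desaturase, was at 118, 175 and 130 RPKM, and SQLE, the squalene epoxidase, at 27, 39 and 26 RPKM. Of 12 heat shock genes, 10 were lowest in replicate 1, with median ratios of 0.814, 1.03 and 1.10. DNAJA1, a co-chaperone of HSP70, was at 128, 163 and 186 RPKM, and the exceptions HSP90AB1 and HSPD1 were nearly level across libraries. The labels do not say whether the replicates came from separate cultures or days, and the cause of these differences was not tested.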

How the data were processed

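RNA of HL-60 cells was measured by poly(A) RNA sequencing (TruSeq). Per the paper and the submitters' processing notes, the authors mapped reads to hg38 with HISAT2. By the same sources, reads were assigned to genes by htseq-count at its defaults. No strand setting is named beyond those defaults. Versions, annotation release and gene lengths are not given in the sources used here. At these defaults, reads that overlap 2 genes or map to several places are left uncounted. The deposited values are RPKM that the authors rounded to whole numbers, and they were handled as a score whose smallest step is 1, never as counts. Depth per library is not in the table, so no counting error is given. Of 12 columns, the 3 of untreated libraries were used. The labels do not say whether replicates were separate cultures, so SDs may be technical.

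Means, SDs, shares of summed RPKM, and counts at or above 1 RPKM were computed in Python 3.11.15 (pandas 2.3.3). The planned design assumed RPKM with decimals, and the same descriptions were computed on the rounded values. No test was run. Biotypes, coordinates, exonic lengths and exon sharing came from GENCODE v44 on GRCh38, which held 57392 of the 58233 identifiers and may differ from the annotation the authors used. Neighbours in an order were called apart where their 3 values did not overlap. The script was tested on simulated data.

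The 32 gene lists (469 entries, all matched) and the members were chosen with earlier results of these data known. The genes that could be named were the 30 with the highest mean, the 20 highest coding genes outside ribosomal and mitochondrial genes, up to 8 of each list with its defining members at 0, all members of the altered gene, drug target, MYC and primary granule lists, genes in the 1 Mb windows, and the 10 largest CVs. The sterol and heat shock lists, and ENO2, VIM, LDHA, EEF1G, RPL17, RPS2, RPL36A and the remaining genes outside that rule, were chosen after their values were seen. Alternatives were a threshold of 5 RPKM, every library at 1 RPKM, length weighting, coding genes alone, equal library sums, medians and leaving out each library. Some genes and loci are not reported here.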

Additional observations from a re-analysis of the deposited data

How the results depend on the processing

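A count was taken as moved when it changed by more than 1.5 times, and a share when it changed by more than 1 SD over the libraries. For the median CV the limit was 0.296 percentage points, the SD of the median CVs computed within each pair of libraries. By these limits 29 of 176 recomputed values of 26 groups and summaries moved. At a threshold of 5 RPKM in place of 1, 7152 genes remained, and fewer members did so in the lists of secondary and tertiary granules (3), mature neutrophils (5), monocytes (1), stem cells (1), T cells (1), erythroid cells (0), eosinophils, basophils and mast cells (0), dendritic cells (0) and HOXA (0), as well as in the CDKN2A window (1). Weighting RPKM by GENCODE v44 exonic length, which may not match the authors' lengths, gave rough shares. They were 7.59% for the 10 and 25.1% for the 100 genes that ranked highest after weighting. The same weighting gave 6.30% for mitochondrial, 8.01% for ribosomal protein and 0.845% for primary granule genes. With coding genes alone, ranked again, the shares in the same order were 23.1%, 44.3%, 25.5%, 10.8% and 1.21%. The median CV was 5.97% with a minimum mean of 5 RPKM, and 3.45% to 4.04% with any library left out. A median CV over fewer libraries is lower by arithmetic alone, so these latter values cannot show dependence on a library. The erythroid list had 2 members at 1 RPKM or more without replicate 3 and with the median over libraries (KLF1 added), and the eosinophil, basophil and mast cell list had 2 without replicate 2 and with the median (MS4A2 added). The sterol genes highest in replicate 2 were 21 of 21 at a minimum mean of 1 RPKM and 18 of 18 after scaling the libraries to one sum, where 2 genes with a mean of 5 RPKM fell just under the minimum, both alternatives chosen after seeing the data. Rounding limits all levels near 1 RPKM. No paired analysis was possible because no groups were compared.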

Other observations

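LGALS1, which encodes galectin 1, was at 35, 58 and 60 RPKM in untreated replicates 1, 2 and 3, and S100A4, a calcium-binding protein gene, was at 71, 124 and 103 RPKM, both lowest in replicate 1. These genes were chosen after their values were seen, and the cause was not tested.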
